A study of Mus musculus with 24 samples.

Results

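Interferon-stimulated genes were followed in mouse mpkCCD cells, a line of kidney epithelium whose labelled tissue is the cortical collecting duct. A list of 45 gene symbols was taken, and every row of the deposited expression table whose gene name equalled a listed symbol was kept. This gave 39 genes of 12224 rows, and all 39 passed the filter on low values, which asked for a mean level of 1 scaled unit or more. Ifit2, Ifit3, Irf9, Mx1, Zbp1 and Psmb8 had no row under their single names and were not analysed here as members. The values behind the table came from poly(A)-selected RNA sequencing of 24 libraries in 4 groups of 6. The first group held Gpr39 knockout (KO) cells given cpd1324, an agonist of the zinc-sensing G protein-coupled receptor GPR39, and the second held KO cells given vehicle. The remaining groups held WT cells, which the labels call without transformation, given cpd1324 or vehicle. All 4 groups grew on permeable inserts for 9 days in complete medium lacking dDAVP, followed by 24 h in simple medium. Treatment lasted 2 h on the basolateral side, with 1 µM cpd1324 or 0.1% DMSO, and 10 µM ZnCl2 was present in both arms. The labels give no number of KO clones, no edited part of Gpr39 and no batch. They do not say whether the 6 libraries of a group came from separate cultures, so p-values measure the spread between these samples, which may be technical.

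Interferons bind cell-surface receptors whose JAK kinases phosphorylate STAT proteins. Type I and type III interferons act on target promoters through the interferon-stimulated response element (ISRE), whereas interferon gamma acts through the gamma-activated site (GAS). The induced genes encode RNA sensors, antiviral enzymes, GTPases, ubiquitin-like modifiers, antigen-processing proteins and transcription factors that carry the response further. Epithelial cells hold a low standing level of many of these transcripts without infection.

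Promoter sequence of members that recur below is shown first, because it can hold the elements through which interferons act. RefSeq windows of the assembly GRCm38.p6, from 250 bases before to 50 after the start, were at hand for 31 of the 39 members, and Irf1, Trim30a, Gbp3 and Znfx1 had 2 windows each. The motifs searched on both strands were GAAANNGAAA, called the ISRE core here, and TTCNNNGAA, called the GAS core, and overlapping matches were counted. The ISRE core stood in a window of 15 of these 31 genes (48.4%), against 307 of the 8680 tested genes with a window (3.54%) and 1131 of all 32851 windows (3.44%). The GAS core stood in a window of 6 of the 31 genes (19.4%), against 715 of the 8680 (8.24%). A match is a string of letters and not a shown binding site. Each stretch is 100 bases from the part before the start, 5′ to 3′ on the gene's strand, with the matches in capitals. The stretches of Oas1a, Oas1g and Oas1f end at the base before the start. The others end farther upstream, 134 bases before the start for Ifit3b, 50 for Ifit1, 36 for Irf1, 24 for Isg15 and 21 for Oas3. The first 4 are Ifit1 (chr19:34640740-34640839, plus strand), Ifit3b (chr19:34607724-34607823, plus strand), Isg15 (chr4:156200842-156200941, minus strand) and Oas3 (chr5:120777680-120777779, minus strand). The other 4 are Oas1a (chr5:120907526-120907625, minus strand), Oas1g (chr5:120887614-120887713, minus strand), Oas1f (chr5:120847267-120847366, plus strand) and Irf1 (chr11:53769879-53769978, plus strand).
Ifit1: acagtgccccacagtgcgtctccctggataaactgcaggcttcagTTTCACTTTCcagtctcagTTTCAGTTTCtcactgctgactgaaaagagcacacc
Ifit3b: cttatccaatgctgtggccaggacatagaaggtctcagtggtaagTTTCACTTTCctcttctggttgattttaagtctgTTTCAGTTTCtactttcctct
Isg15: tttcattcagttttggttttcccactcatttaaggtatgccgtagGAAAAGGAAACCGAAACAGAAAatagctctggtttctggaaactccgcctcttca
Oas3: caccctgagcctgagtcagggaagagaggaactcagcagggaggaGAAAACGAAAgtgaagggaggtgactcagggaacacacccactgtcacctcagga
Oas1a: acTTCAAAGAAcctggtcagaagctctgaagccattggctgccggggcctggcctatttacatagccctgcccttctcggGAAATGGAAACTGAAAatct
Oas1g: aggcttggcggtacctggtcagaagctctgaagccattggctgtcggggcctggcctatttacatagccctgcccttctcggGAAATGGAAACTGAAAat
Oas1f: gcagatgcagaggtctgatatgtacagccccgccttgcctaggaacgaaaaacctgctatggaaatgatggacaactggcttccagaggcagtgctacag
Irf1: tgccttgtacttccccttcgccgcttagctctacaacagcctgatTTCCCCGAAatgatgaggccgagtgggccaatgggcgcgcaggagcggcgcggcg
Ifit1 and Ifit3b each showed 2 separate ISRE cores on the reverse strand. Isg15 showed 3 overlapping ISRE cores, Oas1a and Oas1g 2 overlapping ones and Oas3 a single one. The Irf1 and Oas1a stretches each held 1 GAS core, and neither motif was found in the Oas1f window. The Oas1a and Oas1g stretches are nearly the same, and reads of these close copies, of Oas1f, and of Ifit3b and Ifit3 could be split or shared in the authors' counting, so values of single copies are uncertain.

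Recovered sequencing depth was 29.8 to 51.9 M reads per library, and every member had at least 10 reads in every library. Levels are given in scaled units, the deposited length-normalized values times 1 constant, so they can be compared between genes. The targeted gene, Gpr39, had medians of 9.22 and 9.25 scaled units in KO cells with cpd1324 and with vehicle, against 29.2 and 20.9 in WT cells with cpd1324 and with vehicle. Between 387 and 704 reads per KO library were still assigned to Gpr39. The mean column total with cpd1324 was 0.976 times that with vehicle in KO cells and 1.18 times in WT cells. Of 13 principal-cell markers 10 had rows. Their summed level was 2370 to 3020 scaled units in KO cells with cpd1324 and 2570 to 3190 with vehicle, and 6080 to 8150 in WT cells with cpd1324 and 2760 to 3280 with vehicle. Most of that sum was the keratin Krt18, which rose by 1.51 ± 0.07 on the log2 scale with cpd1324 in WT cells, while 5 of the 10 fell there and 1 fell in KO cells. The sums also hide differences between the genotypes. Under vehicle 3 of the 10 were higher and 3 lower in KO than in WT cells, beside 23.9% of rows in each direction. Aqp2 differed by 2.29 ± 0.17 and Scnn1b by −1.83 ± 0.13 (log2, KO over WT). Of 8 intercalated-cell markers 3 had rows, summing to 34.6 to 52.1 scaled units in KO cells with cpd1324 and 46.2 to 57.7 with vehicle, and to 17.9 to 29.5 in WT cells with cpd1324 and 24.3 to 33.8 with vehicle. The one of these that was tested, the water channel Aqp6, fell with cpd1324 by 0.47 ± 0.12 in KO cells and by 0.36 ± 0.12 in WT cells. Of 19 immune-cell markers 3 had rows (Cd68, Csf1r and Cd79a), of 5 fibroblast markers 1 (Col1a1) and of 5 endothelial markers 0. The summed level of the 3 immune-cell markers was 52.7 to 58.9 scaled units in KO cells with cpd1324 and 49.9 to 70 with vehicle, and 65.9 to 80.1 in WT cells with cpd1324 and 59.9 to 66.8 with vehicle. The 2 that were tested went opposite ways with cpd1324 in WT cells, Cd68 by 0.53 ± 0.10 and Csf1r by −0.21 ± 0.09. Neither was called in KO cells. The part of these markers in the results was not tested. Since the libraries were numbered group by group, treatment and genotype cannot be told apart from library order.

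As a group the members were lowest in WT cells given cpd1324. The sum over the 39 members ran from 756.3 to 879 scaled units in KO cells with cpd1324 and from 856.6 to 1257 in KO cells with vehicle. It ran from 577.2 to 702.2 in WT cells with cpd1324 and from 755.6 to 957.8 in WT cells with vehicle. The WT libraries with cpd1324 thus lay below every other library, while the KO groups overlapped in a narrow range. Since abundant genes dominate a sum, each gene was also set against its own mean over 24 libraries on the log2 scale and these deviations were averaged. The average deviation had a median of −0.02 (−0.13 to 0.21) in KO cells with cpd1324 and 0.38 (0.11 to 0.81) in KO cells with vehicle. In WT cells it was −0.51 (−0.62 to −0.21) with cpd1324 and 0.03 (−0.17 to 0.25) with vehicle.

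**Figure D1:**
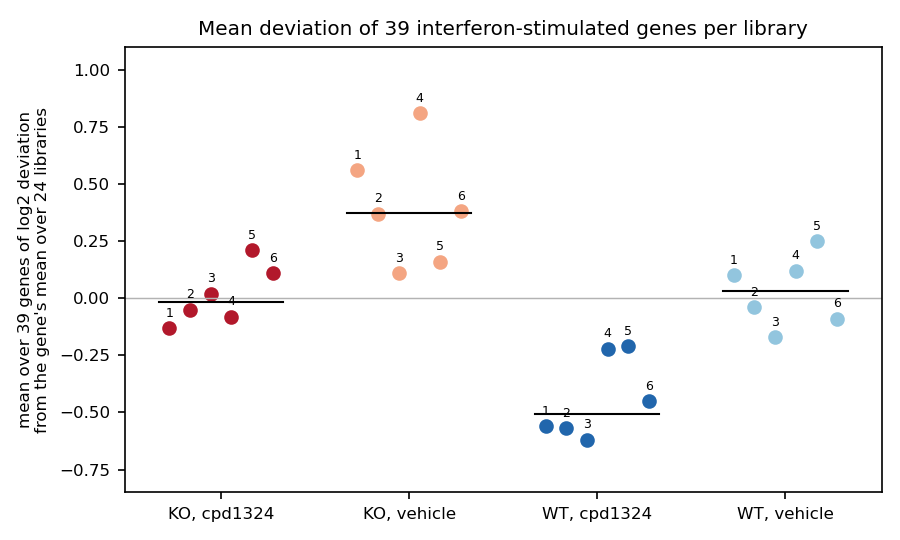
Mean over 39 interferon-stimulated genes of the log2 deviation from each gene's mean (y axis, log2 scale) for each of 24 libraries, with the replicate number beside each point and a line at each group's median. All 6 WT libraries given cpd1324 lie at −0.21 or below, and KO vehicle library 4 stands highest at 0.81.

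The members moved together between libraries of the same group. Replicate 4 of KO cells with vehicle held the group's highest value for 27 of 39 members, and replicate 5 of WT cells with vehicle for 23. Replicates 4 and 5 of WT cells with cpd1324 were highest for 19 and 17 members, and replicate 5 of KO cells with cpd1324 for 17. The correlation of a gene's deviation from its group mean with the average deviation of the other members had a median of 0.73 over the 39 genes, across 24 libraries that each share 1 depth and scaling. It was above 0.5 for 30 genes and below 0 for Samhd1 alone. This is a description with no test. No matching value for other genes is given, so the co-movement is not shown to be particular to these members.

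**Figure D2:**
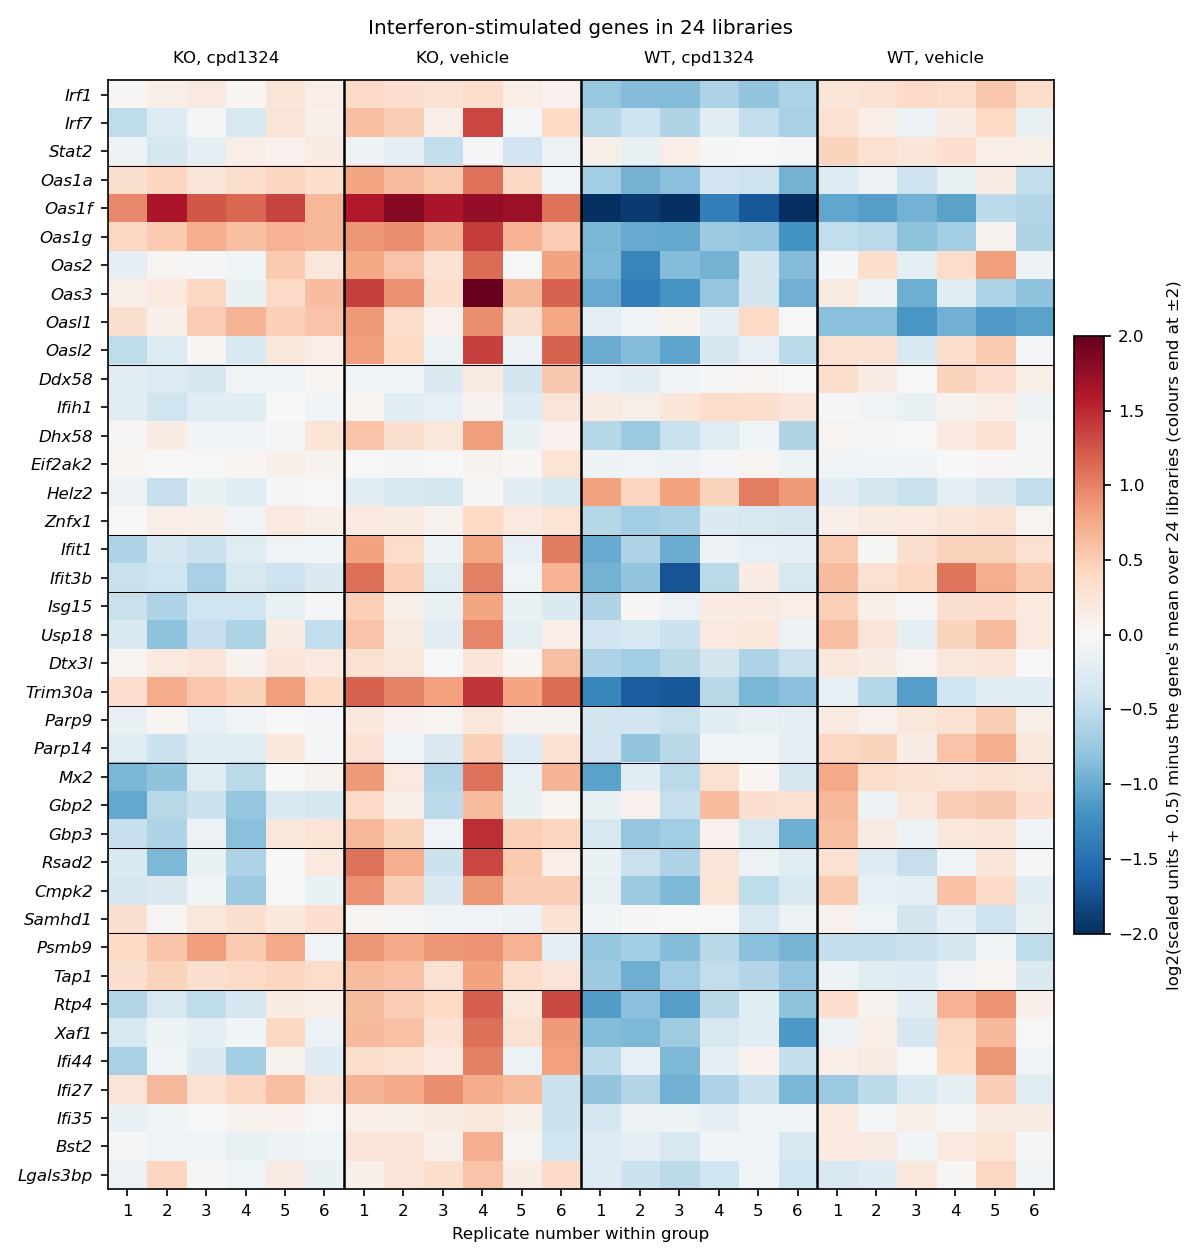
Log2(scaled units + 0.5) minus the gene's mean over 24 libraries (colour, ending at ±2) for each member (rows, by role) and library (columns, by group and replicate number). Most rows are bluest in WT cells given cpd1324, Helz2 and Oasl1 run the other way there, and Oas1f is blue in all 12 WT libraries.

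In WT cells most of these transcripts were lower with cpd1324 than with vehicle. Of the 39 members 33 were called at a limma adjusted p below 0.05, of which 30 fell and 3 rose. Of the 11557 rows tested 57.2% were called, with 28.6% lower and 28.6% higher. Their median log2 fold change was −0.52, against −0.01 over all rows. A fall of at least 1.5-fold was called for 16 members, against 5.43% of rows. In 16 members every cpd1324 library lay below every vehicle library, against 17.7% of rows. RNA was measured in whole cultures, so fewer expressing cells and less RNA per cell cannot be told apart.

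All 3 transcription factors fell in WT cells. Irf1, which switches on antigen-presentation and GTPase genes, had the smallest adjusted p of the list. It stood at 37.3, 40.0 and 43.4 scaled units (lowest, median and highest of 6) in KO cells with cpd1324 and at 38.8, 46.0 and 47.8 in KO cells with vehicle. The WT libraries held 19.8, 21.2 and 23.7 with cpd1324 and 43.2, 47.0 and 53.5 with vehicle. The WT groups did not overlap, the KO groups did, and Irf1 fell in WT cells by 1.12 ± 0.06 on the log2 scale (SE, 6 libraries a group; adjusted p = 3.05e-14). Irf7, which drives type I interferon genes, fell by 0.61 ± 0.16 in WT cells (adjusted p = 0.00266). Stat2, a subunit of the ISRE-binding complex, fell by 0.26 ± 0.09 (adjusted p = 0.0131). The joined row of Irf9 and Rnf31, not a member because its reads cannot be assigned to either gene, fell by 0.60 ± 0.06 in WT cells (adjusted p = 3.43e-09).

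Among the 7 oligoadenylate synthetases and their relatives, enzymes that make the activator of RNase L or share its fold, 5 fell and 1 rose in WT cells. Oas2 had a mean of 2.19 ± 0.59 scaled units with cpd1324 and 5.28 ± 1.65 with vehicle (SD, n = 6 each), a log2 change of −1.09 ± 0.18 (adjusted p = 1.8e-05). Oas1f changed by −1.01 ± 0.16, Oasl2 by −0.85 ± 0.22, Oas1a by −0.49 ± 0.14 and Oas1g by −0.43 ± 0.13. Oas3 did not pass the test at −0.52 ± 0.24 (adjusted p = 0.0702). Oasl1, a relative that in mouse restrains translation of Irf7, went the other way. In WT cells the values were 12.9, 14.5 and 19.8 scaled units with cpd1324 and 6.42, 7.14 and 8.19 with vehicle, with no overlap. Its log2 change was 1.00 ± 0.13 (adjusted p = 2.7e-07).

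The RNA sensors and helicases were divided, with 2 of 6 higher and 3 lower in WT cells. Helz2, a helicase-like nuclear coactivator, was the member that rose most. It stood at 7.54, 9.63 and 10.5 scaled units in KO cells with cpd1324 and at 8.20, 8.65 and 10.8 in KO cells with vehicle. WT cells showed 14.4, 18.8 and 22.0 with cpd1324 and 7.48, 8.37 and 9.28 with vehicle. The WT cpd1324 libraries lay above all others, with a log2 change in WT cells of 1.05 ± 0.09 (adjusted p = 6.14e-10). Ifih1, which encodes the sensor MDA5, stood at 16.9, 18.6 and 20.3 scaled units in WT cells with cpd1324 and at 13.9, 15.0 and 17.0 with vehicle. These groups overlapped slightly, and the log2 change was 0.28 ± 0.08 (adjusted p = 0.00483). When the column totals were made equal, Ifih1 was no longer called in WT cells (0.04, adjusted p = 0.678).

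Znfx1, an RNA helicase of the antiviral response, had one of the most separated falls. It stood at 51.3, 58.2 and 61.9 scaled units in KO cells with cpd1324 and at 56.5, 61.8 and 71.2 in KO cells with vehicle. The WT levels were 33.1, 39.4 and 44.1 with cpd1324 and 55.9, 61.4 and 66.1 with vehicle. The WT groups lay well apart, and the log2 change there was −0.65 ± 0.07 (adjusted p = 1.2e-08). Ddx58, the gene of RIG-I, fell by 0.29 ± 0.11 and Dhx58, the gene of LGP2, by 0.52 ± 0.13. Eif2ak2, the gene of the kinase PKR, changed by −0.04 ± 0.04 with a 95% interval from −0.13 to 0.05.

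Both IFIT genes, whose products bind foreign RNA, fell in WT cells. Ifit3b had a mean of 7.40 ± 3.32 scaled units with cpd1324 and 17.9 ± 3.66 with vehicle, a log2 change of −1.31 ± 0.24 (adjusted p = 4.32e-05) and the deepest fitted fall of the list. Ifit1 fell by 0.86 ± 0.19 (adjusted p = 0.000355), and the joined row of Ifit2 and Ifit3 by 0.82 ± 0.15 (adjusted p = 4.7e-05).

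In the ISG15 group, Dtx3l, a ubiquitin ligase that pairs with PARP9, fell most clearly. It stood at 15.1, 16.7 and 17.4 scaled units in KO cells with cpd1324 and at 14.6, 17.1 and 22.2 in KO cells with vehicle. In WT cells it stood at 8.79, 9.52 and 11.1 with cpd1324 and at 14.4, 16.6 and 17.2 with vehicle. The WT groups were separate and the KO groups were not, with a log2 change in WT cells of −0.70 ± 0.08 (adjusted p = 3.03e-08). Its partner Parp9 fell by 0.53 ± 0.06 in WT cells and Parp14, another ADP-ribosyltransferase, by 0.76 ± 0.14. Usp18, the protease that removes ISG15 and dampens receptor signalling, fell by 0.46 ± 0.19 (adjusted p = 0.0373). Trim30a, a tripartite-motif protein, fell by 0.71 ± 0.18. Isg15 itself, the ubiquitin-like modifier, was not called, with means of 48.4 ± 8.92 and 58.4 ± 6.78 scaled units and a log2 change of −0.28 ± 0.15 (adjusted p = 0.116).

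Of the 3 GTPases, Mx2 fell by 0.68 ± 0.25 and Gbp3 by 0.67 ± 0.23 in WT cells, and Gbp2 changed by −0.24 ± 0.18 without passing the test. Of the nucleotide-directed effectors, the mitochondrial nucleotide kinase Cmpk2 fell by 0.55 ± 0.21. Rsad2, which encodes viperin, changed by −0.17 ± 0.23 and Samhd1, a dNTP hydrolase, by 0.11 ± 0.08, and neither passed. Both antigen-processing genes fell, Tap1, a peptide transporter subunit, by 0.55 ± 0.09 and the immunoproteasome subunit Psmb9 by 0.39 ± 0.15. The remaining 7 members all fell, over a range from −1.10 ± 0.20 for Rtp4 to −0.26 ± 0.08 for Ifi35. Bst2, which encodes the virus-tethering protein tetherin and was the most abundant member, had means of 125.8 ± 10.1 scaled units with cpd1324 and 158.7 ± 14.5 with vehicle in WT cells (log2 change −0.33 ± 0.11).

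**Figure D3:**
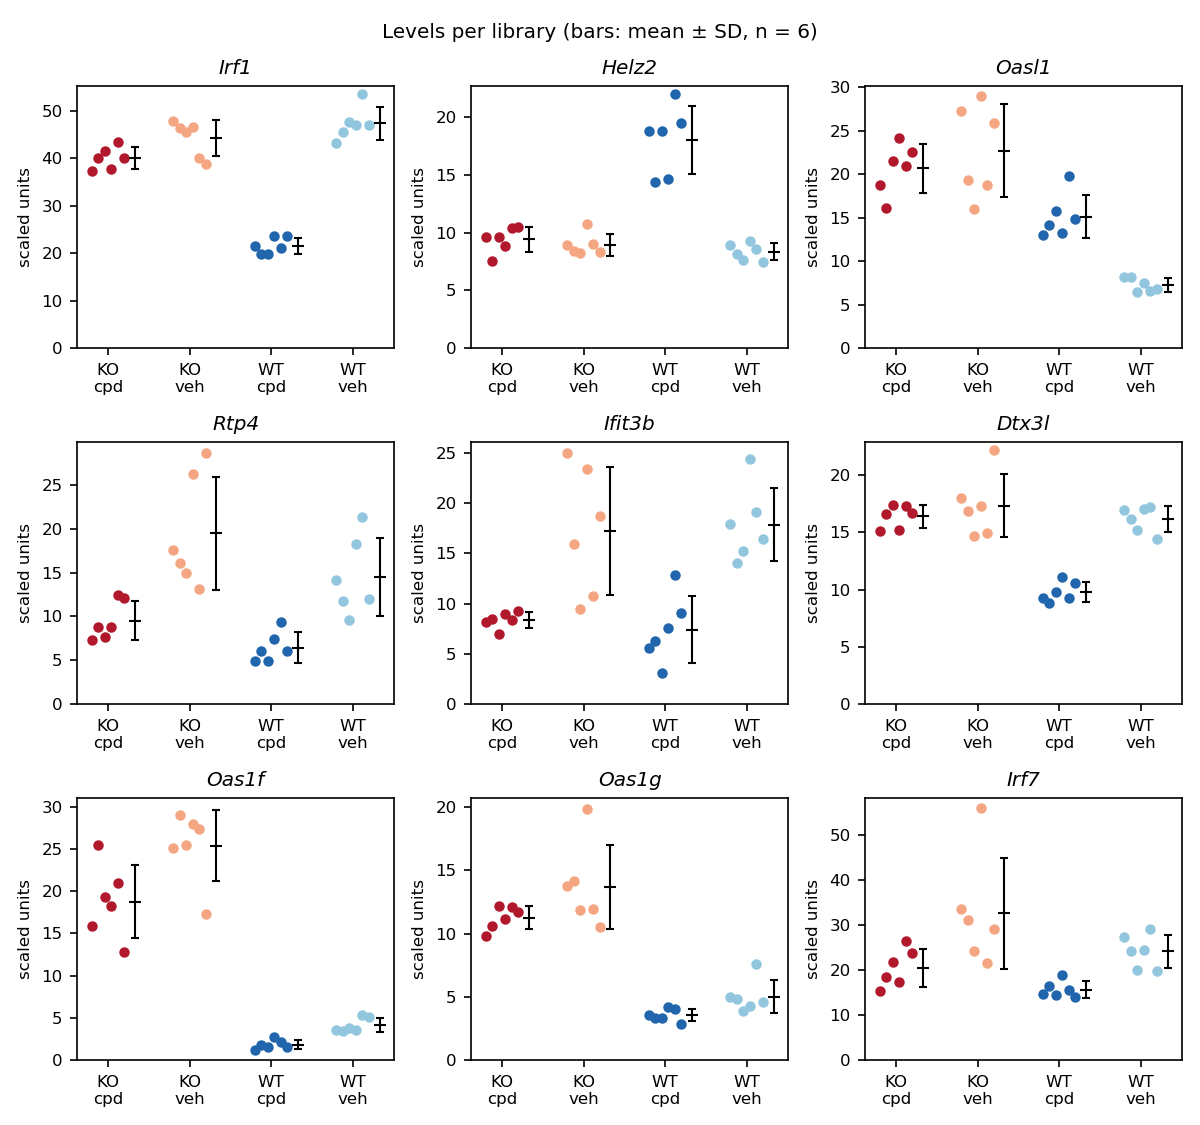
Scaled units (y axis, from 0) of 9 members in each library, grouped as KO and WT cells with cpd1324 (cpd) or vehicle (veh), with bars for the mean ± SD (n = 6). Irf1 and Dtx3l are low and Helz2 is high in WT cells given cpd1324 alone, Rtp4 and Ifit3b are low with cpd1324 in both genotypes, and Oas1f and Oas1g are high in both KO groups.

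For most members the calls in WT cells did not rest on a single library. When each of the 12 WT libraries was left out in turn, 27 of the 33 calls held every time. The calls of Usp18, Ddx58, Ifi27, Cmpk2, Psmb9 and Mx2 were lost in some of these fits, with adjusted p-values of up to 0.0884, 0.0689, 0.114, 0.0766, 0.0796 and 0.0732 in that order. The libraries concerned were replicates 1, 2, 3 and 6 of WT cells with cpd1324 and replicates 1, 4 and 5 of WT cells with vehicle.

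In KO cells every member called for cpd1324 was lower, and the clearest was Rtp4. Of the 39 members 13 fell and 0 rose, against 9.3% of rows called, 4.64% lower and 4.66% higher. Without adjustment 25 of 39 had a p below 0.05, against 28% of rows. Fitting voom to recovered reads gave 16 falls and 0 rises, beside 9.74% of rows called. A fit to the 12 KO libraries alone gave 9 falls and 0 rises, beside 8.54% of rows called. The calls of Gbp3, Irf7, Oas3, Oasl2, Rsad2 and Usp18 were lost in that fit. The median log2 change was −0.26 over the members and −0.01 over all rows. Each of the 13 calls was a fall of at least 1.5-fold, and 0.277% of rows were called with a fall of that size. The groups were free of overlap, with lower values under cpd1324, in 3 members (Rtp4, Ifit3b and Parp9, the last of which was not called), against 1.97% of rows.

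Rtp4, which encodes a receptor chaperone of the secretory pathway, had the smallest adjusted p in KO cells. It stood at 7.28, 8.81 and 12.4 scaled units in KO cells with cpd1324 and at 13.1, 16.9 and 28.7 in KO cells with vehicle. The WT libraries held 4.86, 6.04 and 9.39 with cpd1324 and 9.56, 13.1 and 21.3 with vehicle. The treated libraries lay below the vehicle libraries in both genotypes, with log2 changes of −0.96 ± 0.20 in KO cells (adjusted p = 0.00981) and −1.10 ± 0.20 in WT cells (adjusted p = 5.1e-05).

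Xaf1, a promoter of apoptosis, stood at 10.8, 12.4 and 18.0 scaled units in KO cells with cpd1324 and at 16.5, 20.9 and 29.4 in KO cells with vehicle. In WT cells the values were 5.75, 7.57 and 11.3 with cpd1324 and 10.6, 14.0 and 21.3 with vehicle. In each genotype at least 1 treated library reached into the vehicle range, and the log2 changes were −0.69 ± 0.17 in KO cells (adjusted p = 0.0201) and −0.82 ± 0.17 in WT cells.

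Ifit1 stood at 12.8, 16.3 and 19.1 scaled units in KO cells with cpd1324 and at 17.8, 30.2 and 41.4 in KO cells with vehicle. Of the vehicle libraries 2 lay inside the treated range, and the log2 change was −0.74 ± 0.19 (adjusted p = 0.0206). Ifi44, an interferon-induced cytoplasmic protein, stood at 3.09, 4.28 and 5.57 scaled units in KO cells with cpd1324 and at 4.87, 6.79 and 11.1 in KO cells with vehicle. Its groups overlapped at the lowest vehicle library, and the log2 change was −0.75 ± 0.19 (adjusted p = 0.0207).

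The other 9 called members in KO cells were Ifit3b (−0.92 ± 0.24), Rsad2 (−0.86 ± 0.23), Oas3 (−0.85 ± 0.24), Gbp3 (−0.83 ± 0.23), Cmpk2 (−0.75 ± 0.21), Oasl2 (−0.71 ± 0.22), Usp18 (−0.67 ± 0.19), Gbp2 (−0.66 ± 0.18) and Irf7 (−0.61 ± 0.16), with adjusted p-values from 0.022 to 0.0461. Isg15 (−0.47 ± 0.15, adjusted p = 0.0513) and Mx2 (−0.75 ± 0.25, adjusted p = 0.0551) lay just outside the threshold. None of the 6 RNA sensors and helicases was called in KO cells, nor was Irf1 at −0.14 ± 0.06 with a 95% interval from −0.26 to −0.02.

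The KO calls depended on single libraries. Without replicate 1 of KO cells with cpd1324 the count of 13 became 1, with Rtp4 alone remaining, and without replicate 4 of that group it became 4. Calls over all rows dropped as well, to 2.46% and 3.71% in these fits, against 9.3% with all libraries. Without replicate 1 or 4 of KO cells with vehicle the count became 7 or 6, beside 7.33% and 6.7% of rows. Rises appeared in other fits, 2 of 17 calls without replicate 2 of KO cells with cpd1324 (16% of rows called) and 1 of 18 without replicate 6 of KO cells with vehicle (13.7%). Rtp4 was the 1 member called in all 12 fits that left out a KO library, with an adjusted p of at most 0.0344. Replicate 4 of KO cells with vehicle was the library with the highest average deviation.

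Of the 13 members that fell in KO cells 10 also fell in WT cells, which is 76.9% of the KO falls and 33.3% of the 30 WT falls. Those 10 were Rtp4, Xaf1, Ifit1, Ifit3b, Ifi44, Irf7, Gbp3, Cmpk2, Usp18 and Oasl2. Of all 39 members 30 fell in WT cells, which is also 76.9%, so the overlap is no larger than that share alone would give. Gbp2, Oas3 and Rsad2 passed the test in KO cells but not in WT cells. No member that fell in KO cells had a called difference between the genotypes, so these falls were not shown to differ in size. For Rtp4 the KO effect minus the WT effect was 0.13, with a 95% interval from −0.45 to 0.72, and for Ifit1 it was 0.11, from −0.43 to 0.66.

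**Figure D4:**
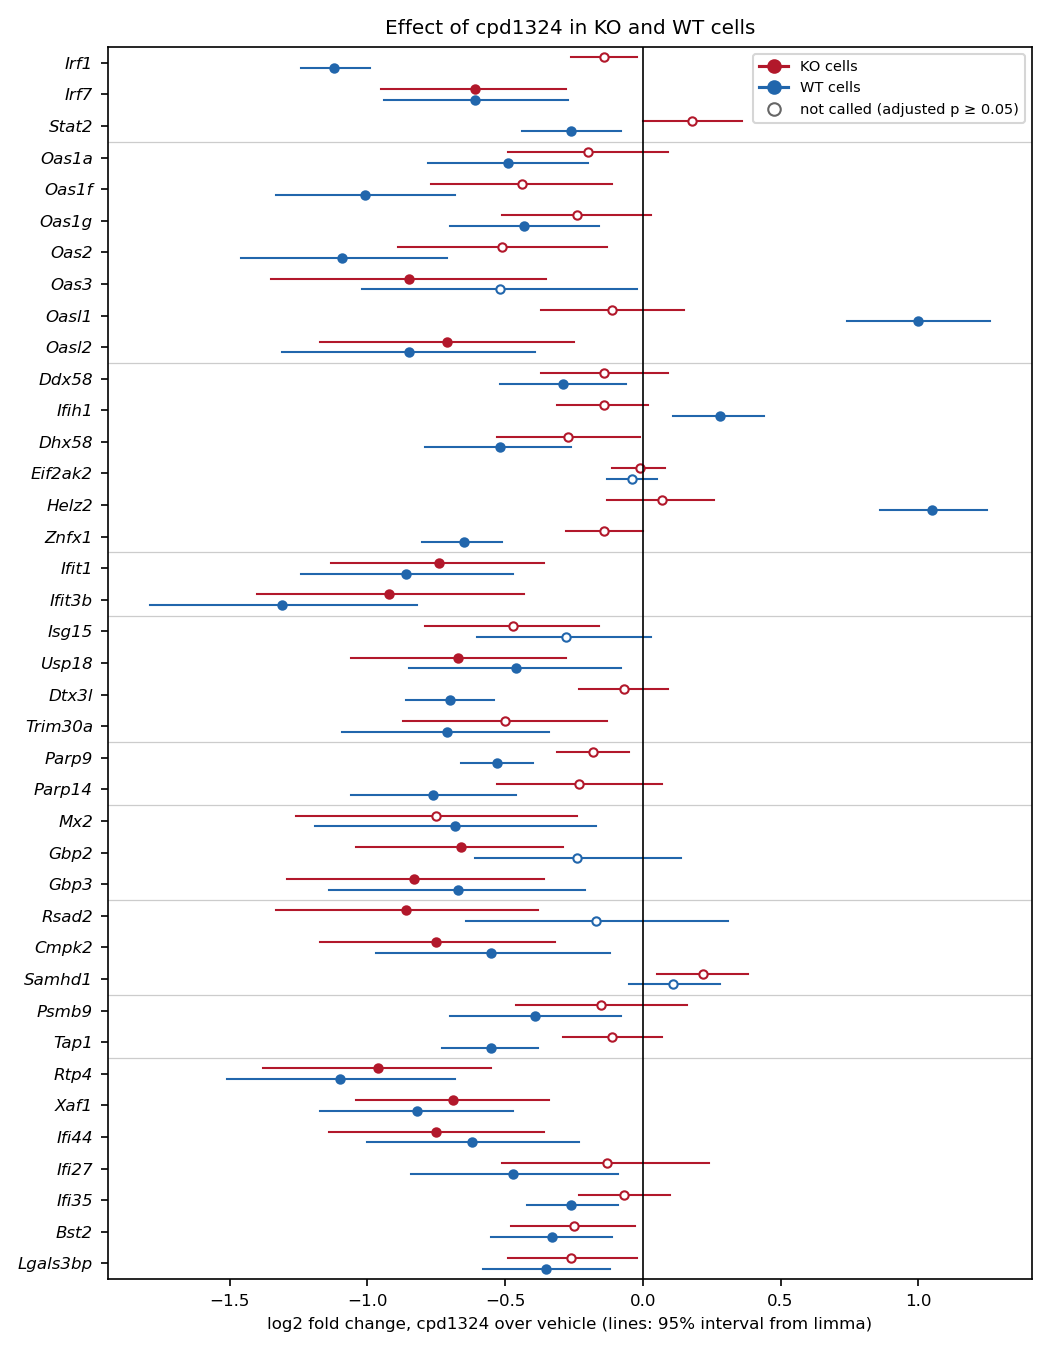
Log2 fold change of cpd1324 over vehicle (x axis; points with 95% intervals from limma) for each member by role, in KO cells above WT cells, with open points where the adjusted p is 0.05 or more. Irf1, Dtx3l and Znfx1 have open points in KO cells, where the Irf1 interval lies just below 0, and lie at −1.12, −0.70 and −0.65 in WT cells. Rtp4 lies at −0.96 in KO and −1.10 in WT cells. Helz2 and Oasl1 have open points in KO cells and lie at 1.05 and 1.00 in WT cells.

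The difference between the genotypes, the KO effect minus the WT effect, was tested directly. It was called for 11 of 39 members (28.2%), 8 positive and 3 negative, which is a smaller share than the 41.1% of all rows, 19.6% positive and 21.5% negative. The median difference was 0.14 over the members and 0.02 over all rows. When the column totals of the 24 libraries were made equal the count was 22, of which 20 were positive, beside 65.3% of all rows called, while that scaling also moved the median of all rows in WT cells to −0.24 and in the difference to 0.28.

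Because the WT effect is subtracted, a fall in WT cells pushes the difference up and a rise pushes it down, so a match of sign is partly built in. The positive differences belonged to genes that fell in WT cells. They were Irf1 (0.97 ± 0.09, adjusted p = 8.26e-10), Dtx3l (0.63 ± 0.11, adjusted p = 4.69e-05), Oas1f (0.57 ± 0.22), Parp14 (0.53 ± 0.20), Znfx1 (0.52 ± 0.10), Stat2 (0.44 ± 0.12), Tap1 (0.44 ± 0.12) and Parp9 (0.35 ± 0.09). The set was 20.5% of the members, near the 19.6% of all rows, so its make-up is only listed. It held Dtx3l and Parp9, whose proteins act as a pair and whose genes lie on chromosome 16, and 2 of the 3 transcription factors. The joined row of Irf9 and Rnf31 had a difference of 0.56 ± 0.08 (adjusted p = 5.29e-06). The negative differences were those of the genes that rose in WT cells, Oasl1 (−1.11 ± 0.18, adjusted p = 1.82e-05), Helz2 (−0.99 ± 0.13, adjusted p = 1.37e-06) and Ifih1 (−0.42 ± 0.11, adjusted p = 0.00406). Of these calls 9 held when any of the 24 libraries was left out, and those of Oas1f and Parp14 were lost in 14 and 12 of the 24 fits, up to adjusted p-values of 0.0863 and 0.0826. The Oas1f difference was 0.27 (adjusted p = 0.249) at a pseudocount of 2, and its call was also lost under quantile scaling (0.47, adjusted p = 0.0959) and with voom (0.74, adjusted p = 0.0621). Parp14 lost its call under quantile scaling (0.43, adjusted p = 0.0813). Ifih1 was not called once the column totals were made equal (−0.15, adjusted p = 0.291).

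Without agonist, KO cells held more of several members than WT cells. Under vehicle 15 of 39 were called (38.5%), a smaller share than the 47.8% of all rows. Of these 13 were higher (33.3% of members) and 2 lower in KO cells, against 23.9% of rows in each direction. The median log2 difference was 0.21 over the members and 0.00 over all rows. A fit to the 12 vehicle libraries alone called 11 members, 10 of them higher, beside 43.6% of rows. A difference of at least 1.5-fold upward was called for 10 members, against 3.64% of rows. Every KO vehicle library lay above every WT vehicle library for 6 members (15.4%), which is near the 13.2% of all rows. The genotypes differ between cell lines whose clone number is not given, so a difference of clones cannot be told apart from the loss of Gpr39.

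Of the oligoadenylate synthetase family, whose 7 members lie on chromosome 5, 5 were higher in KO cells under vehicle. The median log2 difference of all 756 tested rows of that chromosome was 0.05. Oas1f stood at 12.8, 18.7 and 25.5 scaled units in KO cells with cpd1324 and at 17.3, 26.4 and 29.0 in KO cells with vehicle. WT cells showed 1.17, 1.66 and 2.75 with cpd1324 and 3.39, 3.72 and 5.33 with vehicle. All KO libraries lay far above all WT libraries, 5.6-fold under vehicle (log2 2.49 ± 0.16, adjusted p = 3.1e-12).

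Oas1g, a close copy, stood at 9.82, 11.5 and 12.2 scaled units in KO cells with cpd1324 and at 10.5, 12.9 and 19.9 in KO cells with vehicle. The WT levels were 2.89, 3.46 and 4.19 with cpd1324 and 3.87, 4.70 and 7.57 with vehicle. The genotypes did not overlap, with a log2 difference under vehicle of 1.36 ± 0.13 (adjusted p = 5.21e-09). Oasl1 stood at 16.1, 21.2 and 24.2 scaled units in KO cells with cpd1324 and at 15.9, 22.6 and 29.0 in KO cells with vehicle. Both KO ranges lay above the WT vehicle range of 6.42 to 8.19, and the log2 difference under vehicle was 1.55 ± 0.13 (adjusted p = 3.14e-10).

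Oas3 (1.54 ± 0.24) and Oas1a (0.77 ± 0.14) were also higher in KO cells under vehicle, whereas Oas2 (0.38 ± 0.18) and Oasl2 (0.40 ± 0.22) did not pass. Oas3 was a low gene, with 13 reads in its lowest library. Its vehicle means were 4.9 ± 2.7 scaled units in KO cells and 1.27 ± 0.55 in WT cells (SD). It passed the filter on its mean over all libraries, 2.29, while its mean in WT cells with cpd1324 was 0.72.

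Trim30a, on chromosome 7, was near the lower end of the measured levels. It stood at 3.33, 3.81 and 4.88 scaled units in KO cells with cpd1324 and at 4.75, 5.77 and 7.65 in KO cells with vehicle. In WT cells it stood at 0.437, 0.915 and 1.56 with cpd1324 and at 0.905, 1.95 and 2.19 with vehicle. Every KO library was above every WT library, and the log2 difference under vehicle was 1.5 ± 0.18 (adjusted p = 2.33e-07). Both antigen-processing genes were higher in KO cells under vehicle, Psmb9 by 1.04 ± 0.15 and Tap1 by 0.64 ± 0.09, as were Ifi27 (0.80 ± 0.18), Rsad2 (0.61 ± 0.23), Xaf1 (0.51 ± 0.17), Lgals3bp (0.30 ± 0.11) and Samhd1 (0.21 ± 0.08). Stat2 (−0.49 ± 0.09) and Parp14 (−0.36 ± 0.14) were lower in KO cells. The 542 tested rows of chromosome 10, which holds Stat2, had a median difference of −0.16.

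**Figure D5:**
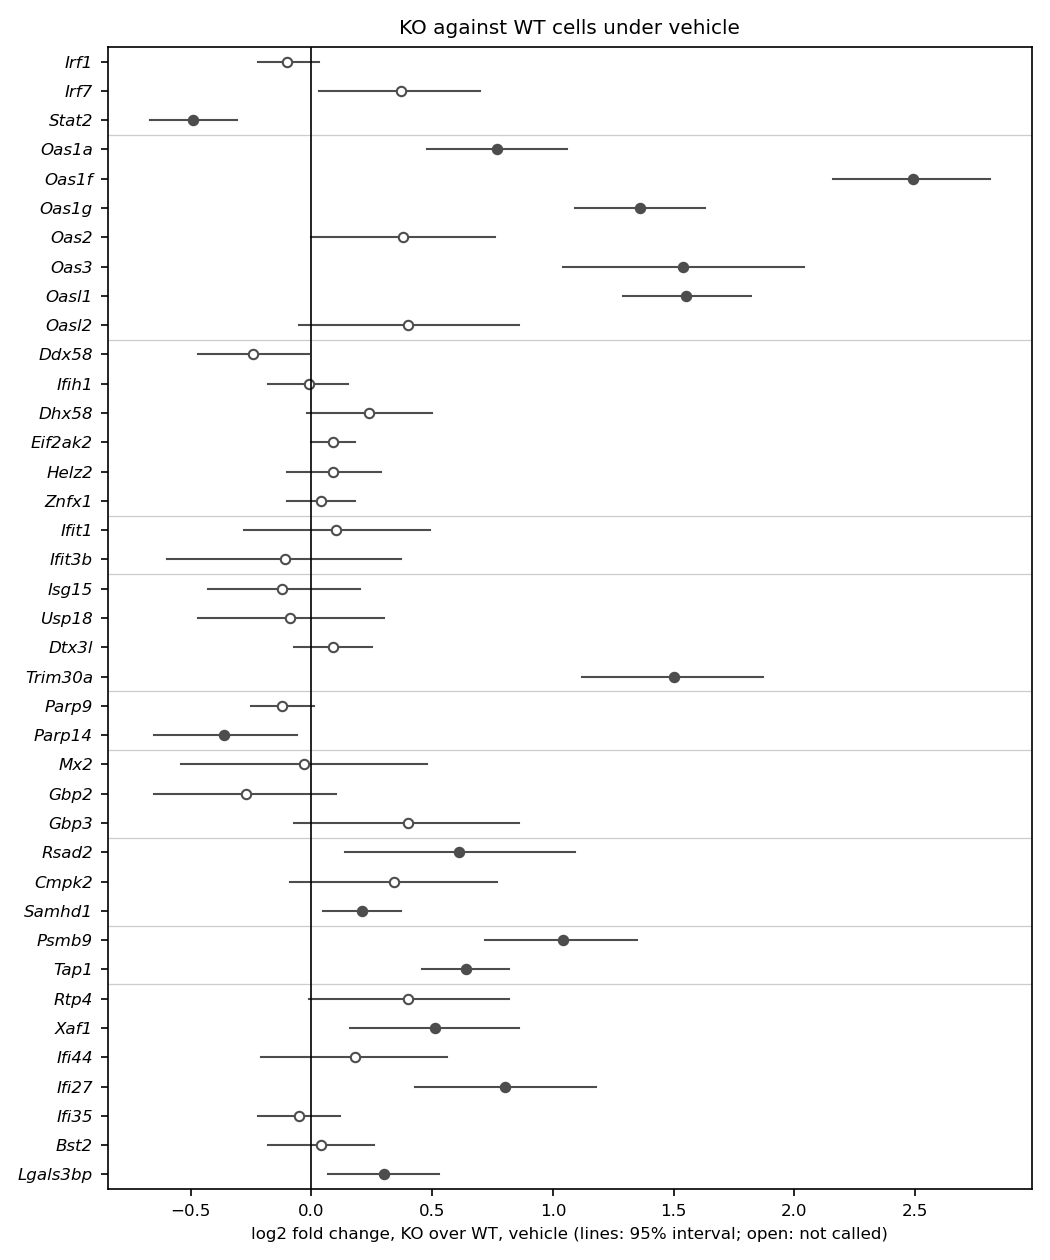
Log2 fold change of KO over WT cells under vehicle (x axis; points with 95% intervals from limma) for each member by role, with open points where the adjusted p is 0.05 or more. Oas1f lies farthest right at 2.49, followed by Oasl1 at 1.55, Oas3 at 1.54, Trim30a at 1.5 and Oas1g at 1.36, while Irf1, Ifit1 and Isg15 lie near 0.

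Many members did not differ between the genotypes beyond the test's threshold under vehicle. Irf1 (−0.10, 95% interval −0.22 to 0.03), Znfx1 (0.04, −0.10 to 0.18), Dtx3l (0.09, −0.07 to 0.25) and Helz2 (0.09, −0.10 to 0.29), the genes that responded to cpd1324 most clearly in WT cells, were among them. Of the 15 calls under vehicle 10 held when any 1 of the 12 libraries was left out, including the 5 members of the oligoadenylate synthetase family, Trim30a, Psmb9, Tap1, Ifi27 and Stat2. Parp14, Lgals3bp, Rsad2, Samhd1 and Xaf1 lost their calls in 7, 6, 5, 4 and 2 of these fits, with adjusted p-values of up to 0.121, 0.0919, 0.0952, 0.0961 and 0.0516 in that order.

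With cpd1324 present 24 members (61.5%) differed between KO and WT cells, near the 64.1% of all rows. Of these 21 were higher and 3 lower in KO cells, against 32% of rows higher and 32.1% lower. For 14 members every KO library lay above every WT library, against 21.7% of rows. This comparison shares its samples with the agonist effects above. All 7 oligoadenylate synthetase members were higher, Oas1f 8.31-fold (log2 3.05 ± 0.16), although the call of Oasl2 (0.55 ± 0.22, adjusted p = 0.0349) was lost in 6 of the 12 fits that left out a library, up to an adjusted p of 0.0828. Irf1 was higher by 0.88 ± 0.06, Dtx3l by 0.72 ± 0.08 and Znfx1 by 0.56 ± 0.07, and Helz2 (−0.89 ± 0.09), Gbp2 (−0.70 ± 0.18) and Ifih1 (−0.43 ± 0.08) were lower in KO cells. The calls of Eif2ak2 and Rtp4 were lost in 6 and 4 of those 12 fits, up to adjusted p-values of 0.0739 and 0.0617.

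The members with an ISRE core in their promoter window did not stand apart in one direction. The 15 with a match had median log2 changes of −0.47 in KO cells and −0.33 in WT cells, with 6 lower in KO cells and 9 lower and 1 higher in WT cells. The 16 without a match had medians of −0.15 in KO cells and −0.58 in WT cells, with 5 lower in KO cells and 13 lower and 2 higher in WT cells. The difference between these sets was not tested.

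Other genes of the pathway were counted from lists of textbook members, chosen with earlier results of these data known and so no independent support. Their counts stand beside the shares of all rows given above, 9.3% called in KO cells and 57.2% in WT cells, near evenly in each direction. Of 11 tested genes of interferon receptors and JAK-STAT signalling, 2 rose and 1 fell in KO cells with cpd1324, and 4 rose and 7 fell in WT cells. Ifngr1, the ligand-binding chain of the interferon gamma receptor, rose by 1.31 ± 0.06 and Stat3 by 0.86 ± 0.04 in WT cells. Il10rb, a receptor chain shared with type III interferons, changed by −0.36 ± 0.05, and Jak1 by 0.22 ± 0.04. No interferon gene of the list had a row among those tested.

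Of 12 tested genes that restrain interferon signalling, 0 rose and 1 fell in KO cells with cpd1324, and 6 rose and 1 fell in WT cells, in total near the share of all rows. Irf2bp2, a corepressor that acts with IRF2, rose by 1.32 ± 0.07 and Ptpn2, a phosphatase of JAK and STAT proteins, by 0.69 ± 0.05. The feedback inhibitor Socs1 rose by 1.12 ± 0.12 and the phosphatase Ptpn11 by 0.49 ± 0.06. The median of this list was 0.04 in KO cells and 0.24 in WT cells, beside −0.01 over all rows in each.

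Of 14 tested nucleic acid sensing genes 0 rose and 0 fell in KO cells, and 3 rose and 6 fell in WT cells, a share near that of all rows. Mavs, the mitochondrial adaptor of RIG-I and MDA5, changed by −0.56 ± 0.05 in WT cells, the transcription factor Irf5 by 1.11 ± 0.12, the kinase Tbk1 by 0.31 ± 0.05 and the RNA-editing enzyme Adar by −0.33 ± 0.05. Class I antigen presentation beyond Tap1 and Psmb9 showed 0 of 10 calls in KO cells and 3 rises and 1 fall in WT cells, where Calr (0.79 ± 0.05), Pdia3 (0.50 ± 0.05) and Canx (0.23 ± 0.04), all chaperones of the endoplasmic reticulum, rose and the proteasome subunit Psmb10 fell by 0.31 ± 0.09.

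A list of 61 further interferon-inducible genes, of which 40 were tested, gave 10 falls and 0 rises in KO cells, and 19 falls and 5 rises in WT cells, beside 4.64% and 28.6% of all rows lower. Its median was −0.19 in KO cells and −0.31 in WT cells. In KO cells the calls with the smallest adjusted p were Tgtp1, an interferon-inducible GTPase (−0.87 ± 0.18), Isg20, an RNA exonuclease (−0.29 ± 0.06), Lgals9, a galectin (−0.26 ± 0.06), and Ube2l6, the E2 enzyme for ISG15 (−0.34 ± 0.08). In WT cells they were Irgm1, a GTPase (0.71 ± 0.07), Trim21, a cytosolic antibody receptor (−1.06 ± 0.10), Oas1c, of the oligoadenylate synthetase family (−0.75 ± 0.07), and Pml, the scaffold of nuclear bodies (−0.52 ± 0.06). Under vehicle 17 of the 40 were higher and 1 lower in KO than in WT cells, beside 23.9% of rows in each direction, the lower one being Parp11, which was listed at 0 in all KO libraries.

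Proliferation genes moved with cpd1324 in both genotypes. Of 30 tested, 19 rose and 0 fell in KO cells and 21 rose and 0 fell in WT cells, beside 4.66% and 28.6% of all rows higher, with medians of 0.44 in KO cells and 0.32 in WT cells. Cenpa (0.65 ± 0.11), a centromere histone, and Top2a (0.56 ± 0.12), a DNA topoisomerase, were among those that rose in KO cells. Their part in the falls of the interferon-stimulated genes was not tested.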

How the data were processed

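Poly(A)-selected RNA was sequenced from 24 libraries of mpkCCD cells, grouped by the sample titles into 4 groups of 6. The deposited table holds 1 signal value per gene and library, beside the length of the gene. The submitters' processing notes name STAR 2.7.8a, DESeq and DESeq2 and the build GRCm39 and give no roles; the counter, the annotation and strand use are not given in the sources used here. Each deposited signal times gene length was a multiple of 0.1, and after multiplication by 1 factor for each library (0.754 to 1.46) 99.9% or more of the values were whole to within 0.05. The signal deposited by the authors is therefore read here as reads over a library factor, over gene length. The test plan had allowed for this unit.

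The table was multiplied by 92.1, so that the mean column total was 1000000 scaled units. The 11557 of 12224 rows with a mean of at least 1 were fitted as log2(scaled units + 0.5), which understates changes of low genes, in limma 3.58.1 (R 4.3.3), with 1 term per group, trend and robust moderation and 20 residual degrees of freedom. Tests were two-sided, p-values were adjusted by Benjamini-Hochberg over all 11557 rows and a gene was called below 0.05. Errors of fold changes are moderated SEs whose spread comes from all 24 libraries. Of the rows, 333 had joined and 393 repeated names. The procedure was tested on simulated data.

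The members and lists were chosen with earlier results of these data known. The lowest, median and highest of 6 libraries are given for the members with the 4 smallest adjusted p-values in each agonist effect. The same was done for KO against WT under vehicle, for the difference and for members that moved against most of the list. Of each other list, up to 4 called genes with the smallest adjusted p are named, with a listed gene not reported here; the rows with joined names were added after their values were seen. Promoters came from RefSeq on GRCm38.p6, which is not the authors' build, and were matched by symbol. Alternatives varied the pseudocount, filter, scaling, libraries, moderation, fold minimum and a replicate block, and voom on recovered reads was chosen after seeing the data.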

Additional observations from a re-analysis of the deposited data

Results flagged for a closer look

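A member's level in a group was marked where 1 library stood farther from the rest than Dixon's 95% critical value for 6 samples (0.625). This marked 13 of 156 sets of a gene and a group, and chance marks about 1 in 20. Of these, 5 lay in replicate 6 of KO cells with vehicle, where Ifi27 was lowest at 38.9 scaled units (next 81.2), Oas1f at 17.3 (next 25.1), Ifi35 at 11.7 (next 17.4) and Psmb9 at 9.04 (next 16.9), while Eif2ak2 was highest at 37.1 (next 32.4). In replicate 4 of the same group Irf7 was highest at 56 (next 33.5), Helz2 at 10.8 (next 8.99) and Gbp3 at 4.6 (next 2.42). In replicate 5 of WT cells with vehicle Ifi27 was highest at 73.5 (next 45.5), Psmb9 at 9.8 (next 8.01) and Oas1g at 7.57 (next 5). Xaf1 was highest at 18 (next 12.9) in replicate 5 of KO cells with cpd1324, and Mx2 at 3.18 (next 2.32) in replicate 1 of WT cells with vehicle.

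The effect of cpd1324 differed between KO and WT cells for 11 members by the limma test of that difference (KO effect minus WT effect, log2). The values were 0.97 for Irf1, 0.63 for Dtx3l, 0.57 for Oas1f, 0.53 for Parp14, 0.52 for Znfx1, 0.44 for Stat2, 0.44 for Tap1 and 0.35 for Parp9. They were −1.11 for Oasl1, −0.99 for Helz2 and −0.42 for Ifih1. The adjusted p-values ran up to 0.0446.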

How the results depend on the processing

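No member changed direction among its called results under any alternative. With equal column totals in all libraries the called difference between genotypes numbered 22 members (20 positive), against 11, with 65.3% of rows called. The medians of all rows then were −0.24 for cpd1324 in WT cells and 0.28 for the difference and for KO against WT with cpd1324. Fitting the groups of a comparison alone gave 9 calls in KO cells (8.54% of rows) and 11 for KO against WT under vehicle (43.6%). Requiring at least 1.5-fold left 18 of 33 calls for cpd1324 in WT cells, beside 13% of rows. It left 4 of 11 for the difference, beside 12.1% of rows, and 14 of 24 for KO against WT with cpd1324, beside 18.1%. Leaving out 1 library at a time gave 1 to 18 calls for cpd1324 in KO cells and 28 to 34 in WT cells. It gave 9 to 12 for the difference, 12 to 19 for KO against WT under vehicle and 21 to 25 with cpd1324. The rows called ran from 2.46% to 16%, 53.1% to 57.8%, 38.5% to 46.4%, 44.6% to 52.5% and 61.6% to 62.9% in that order. Without replicate 6 of KO cells with vehicle and replicate 2 of KO cells with cpd1324 together, the KO count was 19, 2 of them higher, with 22.7% of rows called. A replicate block gave 13, 33, 11, 16 and 24 calls in the same order, beside 9.71%, 57%, 40.9%, 47.7% and 64.1% of rows. The labels do not say whether a replicate number pairs samples across groups. Correlations of deviations between same-numbered libraries ran from −0.31 to 0.49 over 36 pairs, 10 of them above 0.1. They were not set against pairs with different numbers, so they cannot decide whether the samples are paired. The planned edgeR and DESeq2 fits were not run. The deposited unit is not counts, and voom was run in their place on reads recovered from it. Those reads could have been given to edgeR and DESeq2 too, so these methods remain untried. With voom on recovered reads 16 members were called in KO cells (9.74% of rows) and 32 in WT cells (56.9%). Members with few reads, such as Gbp3, Mx2 and Trim30a with 10 or 11 reads in their lowest library, are the least precise.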
